A study of Homo sapiens with 12 samples.

Results

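The 42 genes described here encode the machinery of G2 phase and mitosis: the cyclin-CDK1 core, mitotic kinases, the spindle checkpoint, kinetochore and spindle proteins, cytokinesis factors and proteins that shape mitotic chromosomes. They were taken by name, from a list drawn up with earlier results of these data known, out of the 30225 genes of a deposited RNA-seq table. The RNA came from PC9, an EGFR-mutant human lung adenocarcinoma line whose growth depends on EGFR signalling. Each of the 12 libraries was made from cells given 300 nM gefitinib, an EGFR kinase inhibitor. The 4 groups of 3 libraries were cells with AGR2 knocked down by a short hairpin RNA (shAGR2) and their controls after 24 h of drug, and cells overexpressing AGR2 (oeAGR2) and their controls after 72 h. Both comparisons address which genes respond to AGR2, an endoplasmic reticulum protein related to disulfide isomerases, under the drug. The labels do not give the hairpin, the expression vector, what the controls carried, or whether the engineered cells were pools or clones. Untreated cells were not analysed here. The labels number 3 replicates a group without saying whether they were separate cultures, so p-values set each difference against the spread between these libraries only.

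Most genes of this kind are switched on together late in the cell cycle. In quiescent or G1 cells they are held down by the DREAM complex, in which the MuvB core proteins sit with a pocket protein and E2F. When cells commit to division, MuvB exchanges partners for MYBL2 and then FOXM1, and the same promoters are activated. Cyclin A and cyclin B with CDK1 drive entry into mitosis, the spindle checkpoint holds chromosomes until kinetochores are attached, and the anaphase-promoting complex (APC/C) with CDC20 then destroys securin and cyclin B. Transcripts of these genes are widely used as markers of dividing cells, and EGFR inhibition is known to lower them in EGFR-mutant lung cancer cells.

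Genes that change together can share promoter letters that the choice of members did not use. RefSeq promoter windows (250 bases before to 50 after each annotated start, GRCh38.p14) were found for 37 of the 42 members. FOXM1, AURKA, BIRC5, TTK and TPX2 had no entry in the table. Each window was searched on both strands for TTTGAA and TTTAAA, the usual letters of the cell cycle genes homology region (CHR) that MuvB recognises, for CCAAT, bound by NF-Y, and for TTGGCG or TTCCCG or TTCGCG, cores of E2F sites. TTTGAA or TTTAAA stood in a window of 33 of 37 members (89.2%), against 27.9% of the 27305 gene symbols in the table. CCAAT stood in 27 members (73.0%), against 39.7% of symbols, and an E2F core in 23 (62.2%), against 30.7%. Position was compared next. In 17 members (45.9%) TTTGAA or TTTAAA began 15 to 45 bases before the start, against 4.27% of symbols. In 10 members (27.0%) a CCAAT began 20 to 50 bases further upstream, against 0.425%. These distances were set after the hits were seen, a letter match is not a bound site, and several genes have more than 1 window, any of which could count.

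The 110 bases before the start are shown for 9 of the members whose RNA values are given in detail, so that the arrangement can be seen. These 9 were picked by hand. A larger share of them than of all matched members holds TTTGAA or TTTAAA near the start. AURKB, BUB1 and MYBL2, also given in detail, hold neither in any window. PTTG1 has another window, not shown, in which TTTAAA lies 84 bases before the start. The sequences run 5′ to 3′ on the gene's strand, with TTTGAA or TTTAAA and CCAAT in capitals wherever either strand holds them (CCAAT on the other strand reads ATTGG).
CCNB1: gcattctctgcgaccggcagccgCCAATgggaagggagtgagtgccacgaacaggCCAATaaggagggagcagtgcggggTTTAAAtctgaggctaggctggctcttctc
PLK1: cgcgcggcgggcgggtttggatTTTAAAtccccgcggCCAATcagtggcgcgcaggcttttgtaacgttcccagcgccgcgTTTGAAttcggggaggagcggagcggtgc
CKS1B: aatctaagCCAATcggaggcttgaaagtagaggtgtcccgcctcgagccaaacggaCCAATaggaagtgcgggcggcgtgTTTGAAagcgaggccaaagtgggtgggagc
CDC20: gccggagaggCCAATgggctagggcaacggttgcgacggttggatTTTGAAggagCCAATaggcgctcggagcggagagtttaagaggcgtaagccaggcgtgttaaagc
PTTG1: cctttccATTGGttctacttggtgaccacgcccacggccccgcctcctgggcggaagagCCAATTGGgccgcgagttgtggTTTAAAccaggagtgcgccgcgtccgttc
MKI67: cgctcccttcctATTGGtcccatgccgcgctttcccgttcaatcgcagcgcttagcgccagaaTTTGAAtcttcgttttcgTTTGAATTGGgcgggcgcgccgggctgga
PRC1: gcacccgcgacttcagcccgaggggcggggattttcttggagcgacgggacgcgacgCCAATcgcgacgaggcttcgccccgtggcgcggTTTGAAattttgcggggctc
KIF20A: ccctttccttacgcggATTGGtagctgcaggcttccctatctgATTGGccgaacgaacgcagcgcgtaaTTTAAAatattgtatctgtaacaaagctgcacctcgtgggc
CCNA2: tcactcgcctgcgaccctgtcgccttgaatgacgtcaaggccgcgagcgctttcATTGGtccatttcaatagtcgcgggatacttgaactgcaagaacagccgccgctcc
The positions (GRCh38.p14) are CCNB1 at chr5:69167040-69167149 (plus strand), PLK1 at chr16:23678779-23678888 (plus strand), CKS1B at chr1:154974571-154974680 (plus strand), CDC20 at chr1:43358871-43358980 (plus strand), PTTG1 at chr5:160421745-160421854 (plus strand), MKI67 at chr10:128126424-128126533 (minus strand), PRC1 at chr15:90994536-90994645 (minus strand), KIF20A at chr5:138179002-138179111 (plus strand) and CCNA2 at chr4:121823884-121823993 (minus strand). In CCNB1 the first base of TTTAAA lies 30 bases before the start and CCAAT lies 55 and 87 bases before it. CKS1B has TTTGAA at 30 bases and CCAAT at 54, and PRC1 has TTTGAA at 20 and CCAAT at 53. In MKI67 the TTTGAA nearest the start shares letters with an ATTGG, and in PTTG1 a CCAAT and an ATTGG overlap. CCNA2 holds a CCAAT at 56 bases and neither TTTGAA nor TTTAAA in its window, and CDC20 holds TTTGAA farther out, at 65 bases. An ATTGG followed by CG would also count as an E2F core, so these searches are not independent.

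AGR2 itself stood at 0.592, 0.658 and 0.769 TPM in the 3 knockdown libraries, against 32.9, 31.2 and 31.7 TPM in their controls. It stood at 12.1, 10.7 and 10.7 TPM in the overexpressing libraries, against 8.67, 7.82 and 7.84 TPM in theirs, so the groups do not overlap in either comparison. By ratio of mean TPM AGR2 was 47.5-fold lower in the knockdown but only 1.38-fold higher with overexpression. The 72 h controls held 3.94-fold less AGR2 than the 24 h controls, and the overexpressing libraries also stayed below the 24 h controls. TPM, transcripts scaled to a fixed total with account of their length, bring each library to the same total and keep no read numbers, so sequencing depth is unknown. Transcripts of the mitochondrial genome took 36.6 ± 0.479% of TPM in the knockdown and 44.97 ± 2.11% in its controls (SD, n = 3 each). The median of all 15721 tested genes was 0.35 higher on the log2 scale in the knockdown. That shift was 0.30 between the 72 h and 24 h controls and 0.03 for overexpression, and list medians below are given relative to it. Long transcripts were low in control replicate 1 at 24 h and in overexpression replicate 1. Over the longest eighth of nuclear protein-coding transcripts the median was 2.45 TPM in overexpression replicate 1 against 3.48 and 3.20 TPM in replicates 2 and 3. It was 1.53 TPM in control replicate 1 at 24 h against 1.89 and 1.86 TPM in the others. Of 8 epithelial and lung adenocarcinoma markers 7 reached 1 TPM in some library, the lung marker NAPSA being the exception, while none of 4 endothelial markers did. The epithelial markers summed to 2455 to 2656 TPM in the knockdown libraries, against 5174 to 6578 TPM in their controls. They summed to 6796 to 8587 TPM in the overexpressing libraries, against 4809 to 5189 TPM in theirs. These sums moved opposite to the members described below, without overlap, and their part in the results was not tested. They were mostly keratins, KRT18 alone averaging 1501 TPM in the knockdown and 3684 TPM in its controls. By ratio of mean TPM EGFR went the other way, 1.60-fold higher in the knockdown and 1.98-fold lower with overexpression. So did EPCAM, 1.18-fold higher and 1.21-fold lower, although its rise (0.24 on the log2 scale) was below that of the median gene. CDH1 overlapped its controls in both comparisons. The 5 blood cell markers in the table summed to 126 to 153 TPM in the knockdown libraries, against 51.4 to 62.8 TPM in their controls, nearly all of it CD68, a lysosomal protein gene, while the defining blood gene PTPRC stayed at or under 0.021 TPM in every library. Of 3 fibroblast markers in the table only COL1A1 passed 1 TPM.

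Taken as a sum, the 42 genes were highest in the knockdown and lowest with overexpression. Their TPM added up to 1566, 1454 and 1517 in the knockdown libraries, against 507, 524 and 529.9 in the 24 h controls. They added up to 216, 209 and 212 in the overexpressing libraries, against 442, 433 and 442 in the 72 h controls. No 2 of the 4 groups overlap in this sum, and within a group the libraries lie close together. Set against nuclear protein-coding TPM alone, which leaves out the mitochondrial share, the members made up 0.5002 ± 0.0137% in the knockdown and 0.205 ± 0.0152% in its controls, a 2.44-fold difference, where summed TPM gave 2.91-fold. On the same measure they made up 0.0676 ± 0.00333% with overexpression and 0.143 ± 0.00138% in its controls, 2.11-fold lower. In bulk RNA, a change in the share of cells in G2 or mitosis and a change in these transcripts per cell cannot be told apart.

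**Figure D1:**
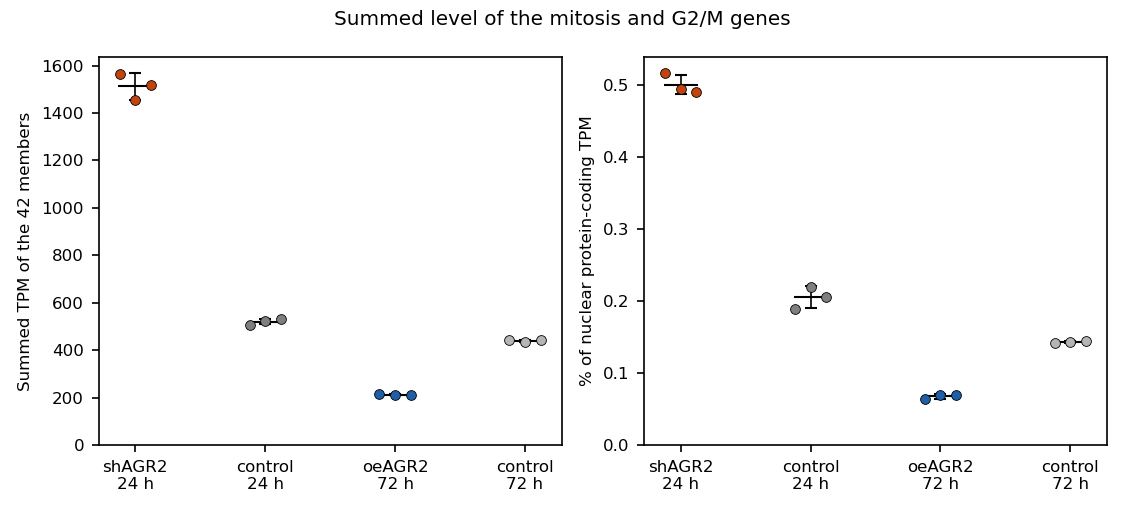
Summed TPM of the 42 genes (left panel) and their percent of nuclear protein-coding TPM (right panel) in each library, as points, with the mean and SD of 3 libraries per group. The knockdown libraries lie at 1454 TPM or above and the overexpressing libraries at 216 TPM or below, with both control groups between them.

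Gene by gene, every one of the 42 was higher in each of the 3 knockdown libraries than in each of the 3 controls, a separation that 57.3% of all tested genes show in this direction. With overexpression every one of the 42 was lower in each library than in each control, which holds for 29.9% of tested genes. Genes reaching 1 TPM in at least 3 libraries were tested with limma on log2(TPM + 1). P-values were adjusted over all genes tested by Benjamini-Hochberg, with a threshold of 0.05. Of the members 41 passed this filter, SPC25 being the exception, while CENPE and NUF2 passed only through the knockdown libraries, in which they were high. In the knockdown 41 of 41 tested members rose, where 53.6% of all tested genes did, and 37 rose at least 2-fold on the log2(TPM + 1) scale, where 12.2% did. With overexpression 36 fell and 0 rose by limma, with all 41 log2 changes below 0, where 25.5% of tested genes fell and 29.9% rose, and 13 fell at least 2-fold, where 3.68% did. With each library rescaled by its median ratio, 41 still rose in the knockdown (background 29.4%), 24 of them 2-fold (background 4.5%), and 38 fell with overexpression (background 28.6%). The median member was 1.15 above the median of all tested genes in the knockdown and stood at -0.77 relative to it with overexpression, on the log2 scale.

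**Figure D2:**
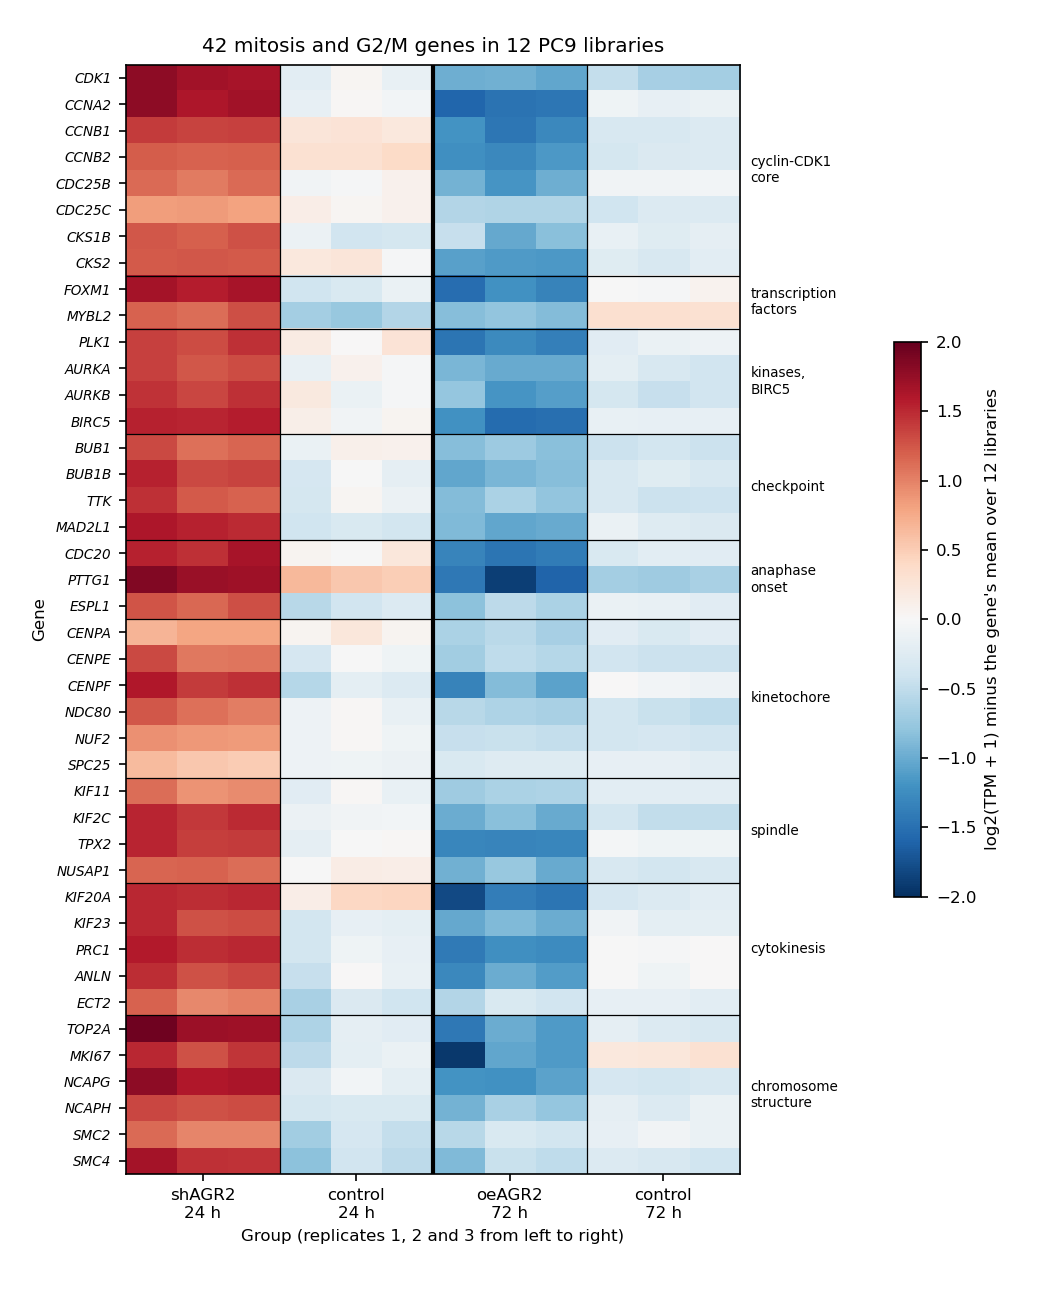
Level of each of the 42 genes (rows, by function) in each of the 12 libraries (columns), as log2(TPM + 1) minus the gene's own mean, red above and blue below it. All 42 rows are reddest in the 3 knockdown columns, and the rows differ in whether the 24 h or the 72 h controls are higher.

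The engine of mitotic entry is CDK1 with its cyclins. CCNA2, cyclin A2, which works from S phase into early mitosis, had 129.9, 116 and 122 TPM in the knockdown libraries, against 32.8, 37.5 and 35.8 TPM in the 24 h controls. CCNA2 had 11.71, 12.6 and 13.0 TPM in the overexpressing libraries, against 34.7, 33.0 and 33.6 TPM in the 72 h controls. By group means, with log2 values from limma, CCNA2 was 3.46-fold higher in the knockdown (log2 fold change 1.76, SE 0.0651, adjusted p = 1.19e-08) and 2.71-fold lower with overexpression (log2 fold change -1.37, SE 0.0651, adjusted p = 9.16e-08). CCNB1, the main mitotic cyclin, had 101, 96.8 and 98.4 TPM in the knockdown libraries, against 44.5, 45.4 and 43.5 TPM in the 24 h controls. CCNB1 had 15.8, 13.1 and 14.8 TPM in the overexpressing libraries, against 29.7, 30.0 and 30.8 TPM in the 72 h controls. Its rise in the knockdown was 2.22-fold and its fall with overexpression 2.07-fold, with no overlap in either comparison. CKS1B, a small CDK-binding subunit, had 113, 109.8 and 116 TPM in the knockdown libraries, against 43.5, 35.8 and 36.8 TPM in the 24 h controls. CKS1B had 34.1, 22.6 and 25.99 TPM in the overexpressing libraries, against 42.6, 39.7 and 41.7 TPM in the 72 h controls. Overexpression replicate 1 lies nearest to the controls for this gene. CDK1 itself averaged 57.5 ± 2.79 TPM in the knockdown and 15.7 ± 1.60 TPM in the 24 h controls, a 3.67-fold rise. With overexpression its fall was small, at 7.98 ± 0.269 TPM with overexpression and 10.8 ± 0.941 TPM in the 72 h controls (log2 fold change -0.39, SE 0.0795, adjusted p = 0.00181). CCNB2 (1.91-fold), CKS2 (2.17-fold) and the CDK1-activating phosphatases CDC25B (2.27-fold) and CDC25C (2.28-fold) were higher in the knockdown by ratios of mean TPM. The same 4 genes were 2.31-fold, 1.90-fold, 2.18-fold and 1.87-fold lower with overexpression, in the order named. The last ratio rests on low values: CDC25C averaged 0.335 ± 0.0101 TPM with overexpression and 0.627 ± 0.0786 TPM in the 72 h controls (log2 fold change -0.28). All 8 genes of this group rose in the knockdown and all 8 fell with overexpression, and the median ratio in the knockdown, 2.28, was the lowest of the 9 functional groups.

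FOXM1 and MYBL2, the transcription factors that activate G2/M promoters, moved strongly in both comparisons. FOXM1 (chromosome 12, 2857680 to 2877174, minus strand, GRCh38) had 72.8, 68.2 and 71.8 TPM in the knockdown libraries, against 16.6, 17.9 and 20.2 TPM in the 24 h controls. FOXM1 had 7.06, 9.04 and 8.20 TPM in the overexpressing libraries, against 22.1, 21.9 and 23.6 TPM in the 72 h controls. That is 3.89-fold higher in the knockdown (log2 fold change 1.91, SE 0.0889, adjusted p = 4.96e-08) and 2.78-fold lower with overexpression (log2 fold change -1.38, SE 0.0889, adjusted p = 7.47e-07). MYBL2 (chromosome 20, 43667019 to 43716495, plus strand) had 14.1, 13.5 and 15.3 TPM in the knockdown libraries, against 3.17, 2.96 and 3.45 TPM in the 24 h controls. MYBL2 had 2.69, 2.85 and 2.68 TPM in the overexpressing libraries, against 7.32, 7.32 and 7.24 TPM in the 72 h controls. It was 4.47-fold higher in the knockdown and 2.66-fold lower with overexpression, where its libraries nearly coincide within each group.

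Among the mitotic kinases and their partner BIRC5 (survivin, which anchors AURKB to centromeres), all 4 rose in the knockdown and all 4 fell with overexpression. PLK1, the polo kinase of spindle and centrosome, had 50.5, 48.1 and 53.6 TPM in the knockdown libraries, against 21.3, 19.0 and 23.1 TPM in the 24 h controls. PLK1 had 6.28, 7.27 and 6.72 TPM in the overexpressing libraries, against 16.1, 17.2 and 17.6 TPM in the 72 h controls. Knockdown values lay above and overexpression values below every control value. BIRC5 had 70.8, 69.6 and 72.4 TPM in the knockdown libraries, against 25.9, 22.4 and 24.7 TPM in the 24 h controls. BIRC5 had 9.62, 7.49 and 7.64 TPM in the overexpressing libraries, against 21.3, 21.0 and 21.0 TPM in the 72 h controls. Both fell by more than 2-fold with overexpression, PLK1 2.51-fold and BIRC5 2.56-fold. AURKB had 47.3, 43.7 and 47.8 TPM in the knockdown libraries, against 19.3, 15.2 and 16.5 TPM in the 24 h controls. AURKB had 9.39, 6.82 and 7.28 TPM in the overexpressing libraries, against 12.9, 11.9 and 12.7 TPM in the 72 h controls, with overexpression replicate 1 closest to the controls. AURKA, the spindle-pole kinase, averaged 17.2 ± 0.757 TPM in the knockdown and 6.25 ± 0.597 TPM in the 24 h controls (2.75-fold higher). It averaged 2.74 ± 0.145 TPM with overexpression and 4.99 ± 0.392 TPM in the 72 h controls (1.82-fold lower).

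The spindle checkpoint genes rose as a block in the knockdown, by a median ratio of 3.70, and all 4 passed as lower with overexpression, none by 2-fold on the log2(TPM + 1) scale. MAD2L1, which inhibits CDC20 at unattached kinetochores, had 31.6, 29.9 and 28.8 TPM in the knockdown libraries, against 7.07, 7.61 and 7.25 TPM in the 24 h controls. MAD2L1 had 4.74, 4.18 and 4.26 TPM in the overexpressing libraries, against 8.70, 7.83 and 7.64 TPM in the 72 h controls. That is 4.12-fold higher (log2 fold change 1.90, SE 0.0639, adjusted p = 6.53e-09) and 1.83-fold lower (log2 fold change -0.75, SE 0.0639, adjusted p = 5.13e-06). BUB1, the kinase that recruits checkpoint proteins to kinetochores, was lower in level throughout. It had 9.11, 7.71 and 8.04 TPM in the knockdown libraries, against 2.67, 3.34 and 3.30 TPM in the 24 h controls. BUB1 had 1.24, 1.43 and 1.26 TPM in the overexpressing libraries, against 2.00, 2.14 and 1.99 TPM in the 72 h controls. The same separation held for BUB1B, its relative BubR1, a part of the complex that holds back the APC/C. BUB1B had 9.55, 8.06 and 8.28 TPM in the knockdown libraries, against 1.89, 2.63 and 2.23 TPM in the 24 h controls. BUB1B had 0.781, 0.925 and 1.02 TPM in the overexpressing libraries, against 1.91, 2.08 and 1.91 TPM in the 72 h controls. By ratios of mean TPM BUB1 was 2.67-fold and BUB1B 3.83-fold higher in the knockdown, and BUB1 was 1.56-fold and BUB1B 2.16-fold lower with overexpression. TTK, the kinase that starts the checkpoint signal, averaged 6.73 ± 0.821 TPM in the knockdown and 1.89 ± 0.387 TPM in the 24 h controls (3.57-fold higher). TTK averaged 0.866 ± 0.156 TPM with overexpression and 1.42 ± 0.0984 TPM in the 72 h controls (1.64-fold lower, adjusted p = 0.014 by limma).

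At anaphase onset the APC/C activator CDC20 was the most abundant member of all. It had 193, 183 and 207 TPM in the knockdown libraries, against 67.8, 65.4 and 77.3 TPM in the 24 h controls. CDC20 had 25.7, 23.2 and 24.3 TPM in the overexpressing libraries, against 52.8, 56.3 and 55.8 TPM in the 72 h controls. The difference was 2.77-fold upward in the knockdown (log2 fold change 1.46, SE 0.0732, adjusted p = 7.94e-08) and 2.25-fold downward with overexpression (log2 fold change -1.14, SE 0.0732, adjusted p = 7.25e-07). PTTG1, securin, which keeps separase inactive, had 130.1, 119 and 117 TPM in the knockdown libraries, against 55.9, 52.1 and 50.2 TPM in the 24 h controls. PTTG1 had 12.5, 8.86 and 11.0 TPM in the overexpressing libraries, against 21.6, 21.3 and 22.2 TPM in the 72 h controls. For PTTG1 the 72 h controls lay well below the 24 h controls. ESPL1, separase, which cuts cohesin, had 9.43, 8.75 and 9.70 TPM in the knockdown libraries, against 1.99, 2.36 and 2.63 TPM in the 24 h controls. ESPL1 had 1.48, 2.07 and 1.84 TPM in the overexpressing libraries, against 2.99, 2.94 and 2.73 TPM in the 72 h controls. Securin was the more abundant in all 12 libraries, but separase rose more in the knockdown, 3.99-fold against 2.32-fold for securin, and fell less with overexpression, 1.61-fold against 2.01-fold; the difference between the genes was not tested.

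**Figure D3:**
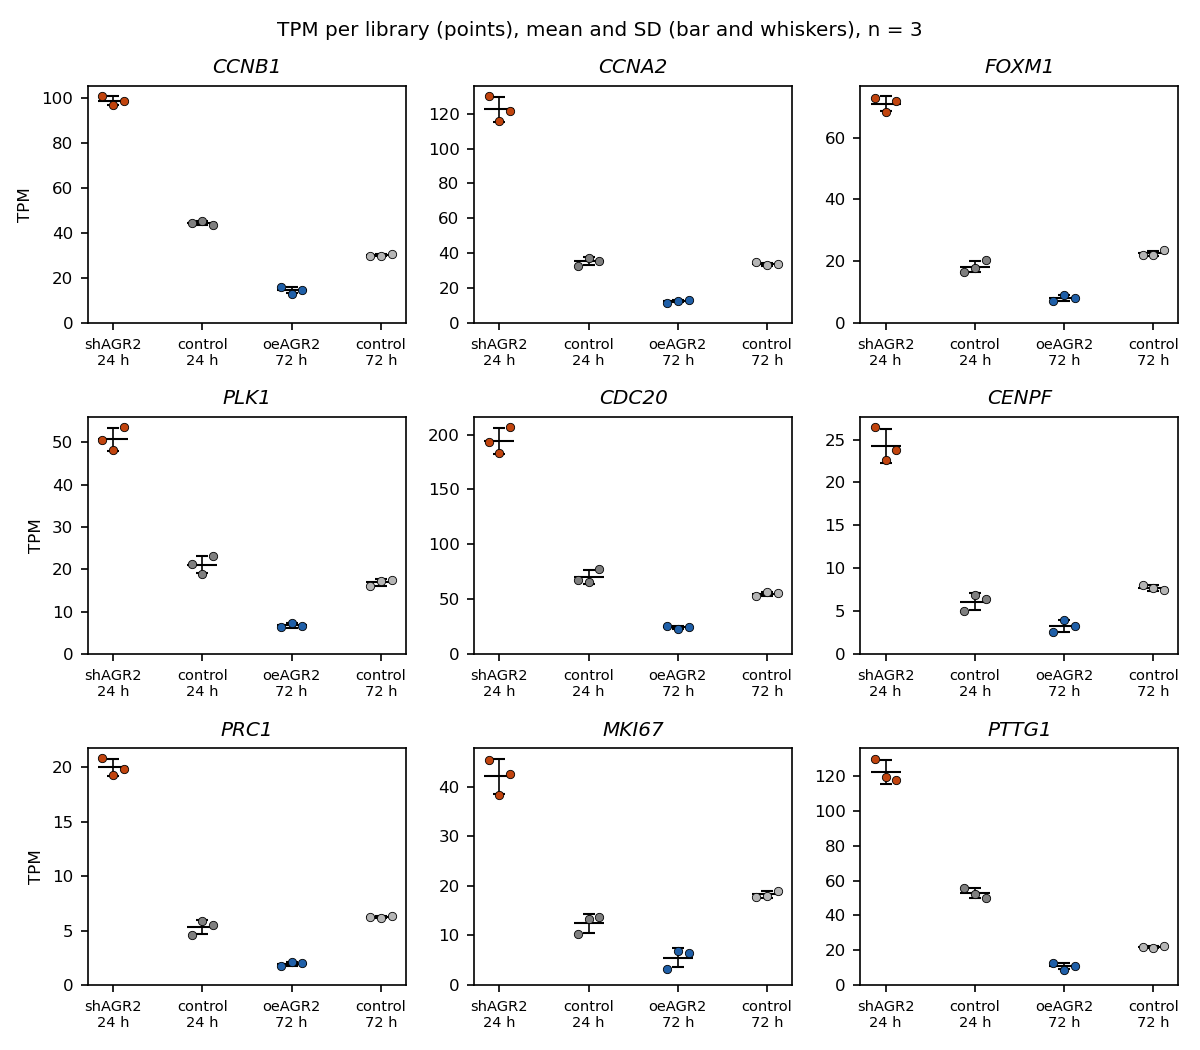
TPM of 9 members in each of the 3 libraries of each group (points), with mean and SD; each gene has its own linear axis from 0. In every panel the 3 knockdown points lie above all others and the 3 overexpression points below all others, while the order of the control groups differs, PTTG1 being higher at 24 h and MKI67 at 72 h.

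The centromere and kinetochore genes held 3 of the 5 tested members that did not pass with overexpression. CENPF, a kinetochore protein of G2 and mitosis, had 26.4, 22.6 and 23.8 TPM in the knockdown libraries, against 5.05, 6.88 and 6.42 TPM in the 24 h controls. CENPF had 2.56, 3.92 and 3.30 TPM in the overexpressing libraries, against 8.00, 7.67 and 7.41 TPM in the 72 h controls. It was 3.97-fold higher and 2.36-fold lower (log2 fold change -1.04, SE 0.126, adjusted p = 5.73e-05). CENPA, the centromeric histone H3 variant, had 2.94, 3.24 and 3.27 TPM in the knockdown libraries, against 1.55, 1.87 and 1.56 TPM in the 24 h controls. CENPA had 0.593, 0.688 and 0.561 TPM in the overexpressing libraries, against 1.11, 0.983 and 1.11 TPM in the 72 h controls. Its 1.90-fold ratio was the smallest in the knockdown. NDC80, which binds microtubules at the kinetochore, had 8.67, 7.75 and 7.33 TPM in the knockdown libraries, against 2.81, 3.17 and 2.69 TPM in the 24 h controls. NDC80 had 1.79, 1.65 and 1.59 TPM in the overexpressing libraries, against 2.16, 1.99 and 1.86 TPM in the 72 h controls. In the knockdown it was 2.74-fold higher (log2 fold change 1.20, SE 0.0726, adjusted p = 2.79e-07), whereas its 1.19-fold difference with overexpression did not pass (log2 fold change -0.16, SE 0.0726, adjusted p = 0.0776). NDC80 passed as lower with a pseudocount of 0.1 (adjusted p = 0.0483), quantile normalisation (0.0195) and length and GC trends removed (0.00833), by limma. NUF2, the partner of NDC80, averaged 1.95 ± 0.0687 TPM in the knockdown and 0.547 ± 0.0697 TPM in the 24 h controls. Its means were 0.168 ± 0.0133 TPM with overexpression and 0.250 ± 0.0176 TPM in the 72 h controls (adjusted p = 0.168 for overexpression by limma). The mitotic kinesin CENPE averaged 3.30 ± 0.462 TPM in the knockdown and 0.763 ± 0.203 TPM in the 24 h controls. Its means were 0.286 ± 0.0803 TPM with overexpression and 0.456 ± 0.0316 TPM in the 72 h controls (adjusted p = 0.158 for overexpression). Both genes were below 1 TPM outside the knockdown. SPC25, another subunit of the NDC80 complex, stayed near or under 1 TPM, at 1.14, 1.01 and 0.972 TPM in the knockdown libraries, against 0.300, 0.308 and 0.286 TPM in the 24 h controls. SPC25 had 0.125, 0.155 and 0.158 TPM in the overexpressing libraries, against 0.235, 0.235 and 0.197 TPM in the 72 h controls. At such levels log2(TPM + 1) understates fold differences. Of the 5 tested genes all 5 rose in the knockdown, while 2 fell and 3 did not pass with overexpression. CENPE and NUF2 entered the test only through their knockdown values, so for them the filter itself favoured a rise.

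Spindle motors and assembly factors rose by a median ratio of 3.00 in the knockdown, all 4 passing, and all 4 fell with overexpression. TPX2, which activates AURKA on the spindle, had 18.9, 17.1 and 17.1 TPM in the knockdown libraries, against 5.09, 5.89 and 6.05 TPM in the 24 h controls. TPX2 had 1.78, 1.76 and 1.79 TPM in the overexpressing libraries, against 5.72, 5.51 and 5.54 TPM in the 72 h controls. It was 3.12-fold higher and 3.14-fold lower (log2 fold change -1.25, SE 0.0635, adjusted p = 1.47e-07). KIF2C, a kinesin that depolymerises microtubules at centromeres, had 23.7, 22.01 and 23.2 TPM in the knockdown libraries, against 6.90, 7.24 and 7.33 TPM in the 24 h controls. KIF2C had 3.33, 3.82 and 3.29 TPM in the overexpressing libraries, against 5.65, 5.11 and 5.12 TPM in the 72 h controls. Its groups kept apart in both comparisons. NUSAP1, a microtubule-bundling protein, had 9.10, 9.17 and 8.82 TPM in the knockdown libraries, against 3.47, 4.01 and 3.97 TPM in the 24 h controls. NUSAP1 had 1.32, 1.67 and 1.25 TPM in the overexpressing libraries, against 2.59, 2.52 and 2.60 TPM in the 72 h controls. Fold differences of KIF2C were 3.21-fold up and 1.52-fold down, and of NUSAP1 2.37-fold up and 1.82-fold down. KIF11, the motor that separates spindle poles, averaged 4.44 ± 0.433 TPM in the knockdown and 1.54 ± 0.238 TPM in the 24 h controls. Its means were 0.742 ± 0.0647 TPM with overexpression and 1.37 ± 0.00942 TPM in the 72 h controls.

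Cytokinesis genes showed the largest median fall with overexpression outside the transcription factors, 2.497-fold. PRC1, which bundles the central spindle, had 20.8, 19.3 and 19.8 TPM in the knockdown libraries, against 4.64, 5.88 and 5.55 TPM in the 24 h controls. PRC1 had 1.73, 2.11 and 2.04 TPM in the overexpressing libraries, against 6.23, 6.20 and 6.35 TPM in the 72 h controls. It was 3.73-fold higher in the knockdown (log2 fold change 1.73, SE 0.0779, adjusted p = 4.17e-08) and 3.20-fold lower with overexpression (log2 fold change -1.30, SE 0.0779, adjusted p = 4.45e-07). KIF20A, a central spindle kinesin, had 51.5, 50.2 and 51.2 TPM in the knockdown libraries, against 19.1, 23.6 and 23.8 TPM in the 24 h controls. KIF20A had 4.27, 6.04 and 5.64 TPM in the overexpressing libraries, against 13.6, 14.2 and 14.8 TPM in the 72 h controls. Overexpression replicate 1 was the lowest library for KIF20A. ANLN, anillin of the contractile ring, had 24.7, 21.2 and 22.3 TPM in the knockdown libraries, against 5.72, 8.29 and 7.31 TPM in the 24 h controls. ANLN had 2.79, 3.65 and 3.26 TPM in the overexpressing libraries, against 8.20, 7.73 and 8.27 TPM in the 72 h controls. KIF20A fell 2.67-fold and ANLN 2.497-fold with overexpression. KIF23, a subunit of centralspindlin, averaged 17.1 ± 1.61 TPM in the knockdown and 4.97 ± 0.455 TPM in the 24 h controls. Its means were 2.60 ± 0.178 TPM with overexpression and 5.34 ± 0.337 TPM in the 72 h controls. ECT2, the RhoA activator of the cleavage furrow, averaged 9.94 ± 0.921 TPM in the knockdown and 2.89 ± 0.484 TPM in the 24 h controls. Its means were 2.93 ± 0.388 TPM with overexpression and 3.66 ± 0.105 TPM in the 72 h controls, and the overexpression difference did not pass (log2 fold change -0.25, SE 0.104, adjusted p = 0.0638). ECT2 passed without overexpression replicate 2, with median-ratio or quantile rescaling, and with length and GC trends removed.

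Genes that shape mitotic chromosomes rose in the knockdown by a median ratio of 4.19, about that of the transcription factors at 4.18. TOP2A, the topoisomerase that untangles sister chromatids, had 58.2, 49.5 and 49.0 TPM in the knockdown libraries, against 9.08, 12.6 and 12.2 TPM in the 24 h controls. TOP2A had 4.75, 6.77 and 6.05 TPM in the overexpressing libraries, against 12.6, 11.8 and 11.4 TPM in the 72 h controls. It was 4.63-fold higher (log2 fold change 2.12, SE 0.136, adjusted p = 3.91e-07) and 2.04-fold lower (log2 fold change -0.93, SE 0.136, adjusted p = 0.000215). The proliferation antigen MKI67, which coats mitotic chromosomes, had 45.4, 38.4 and 42.6 TPM in the knockdown libraries, against 10.3, 13.3 and 13.8 TPM in the 24 h controls. MKI67 had 3.27, 6.90 and 6.42 TPM in the overexpressing libraries, against 17.8, 18.04 and 19.0 TPM in the 72 h controls. Overexpression replicate 1 was well under the other 2 libraries of its group. SMC4, a core subunit of condensin, had 32.2, 27.9 and 27.8 TPM in the knockdown libraries, against 4.95, 7.12 and 6.31 TPM in the 24 h controls. SMC4 had 4.74, 6.71 and 6.40 TPM in the overexpressing libraries, against 7.67, 7.43 and 6.96 TPM in the 72 h controls. Its 4.78-fold rise was the largest ratio in the knockdown, yet its difference with overexpression did not pass (log2 fold change -0.28, SE 0.133, adjusted p = 0.103). SMC4 passed as lower with median-ratio rescaling, with quantile normalisation and with length and GC trends removed, its adjusted p by limma then being 0.0390, 0.0254 and 0.00810. SMC2, the other condensin ATPase, averaged 7.12 ± 0.509 TPM in the knockdown and 1.82 ± 0.342 TPM in the 24 h controls. Its means were 2.01 ± 0.271 TPM with overexpression and 2.64 ± 0.112 TPM in the 72 h controls (adjusted p = 0.0323), a call lost on leaving out any library of the 2 groups other than overexpression replicate 2. The condensin I subunits NCAPG, 4.30-fold higher and 2.28-fold lower, and NCAPH, 4.08-fold higher and 1.93-fold lower, passed in both comparisons.

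Transcript length moves with some of these values. MKI67 and CENPF have the longest transcripts among the members, 12678 and 10307 bases in GENCODE 29, and in both the lowest library of the overexpression group was replicate 1, which was low in long transcripts generally. The median of the longest eighth of transcripts was also higher in the knockdown, at 2.96 to 3.38 TPM, than in its controls, at 1.53 to 1.89 TPM. With each library's trend on length and GC content removed, the log2 change of MKI67 was 1.52 in the knockdown, against 1.69 as deposited, and -1.45 with overexpression, against -1.61 as deposited. Without overexpression replicate 1 the overexpression change of MKI67 was -1.33. Over the tested members, the trend-corrected values gave 41 rises in the knockdown, 34 of them 2-fold, and 41 falls with overexpression, 11 of them 2-fold. Of all 15721 tested genes 8653 then rose in the knockdown and 4324 fell with overexpression, where 8432 and 4005 did as deposited.

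**Figure D4:**
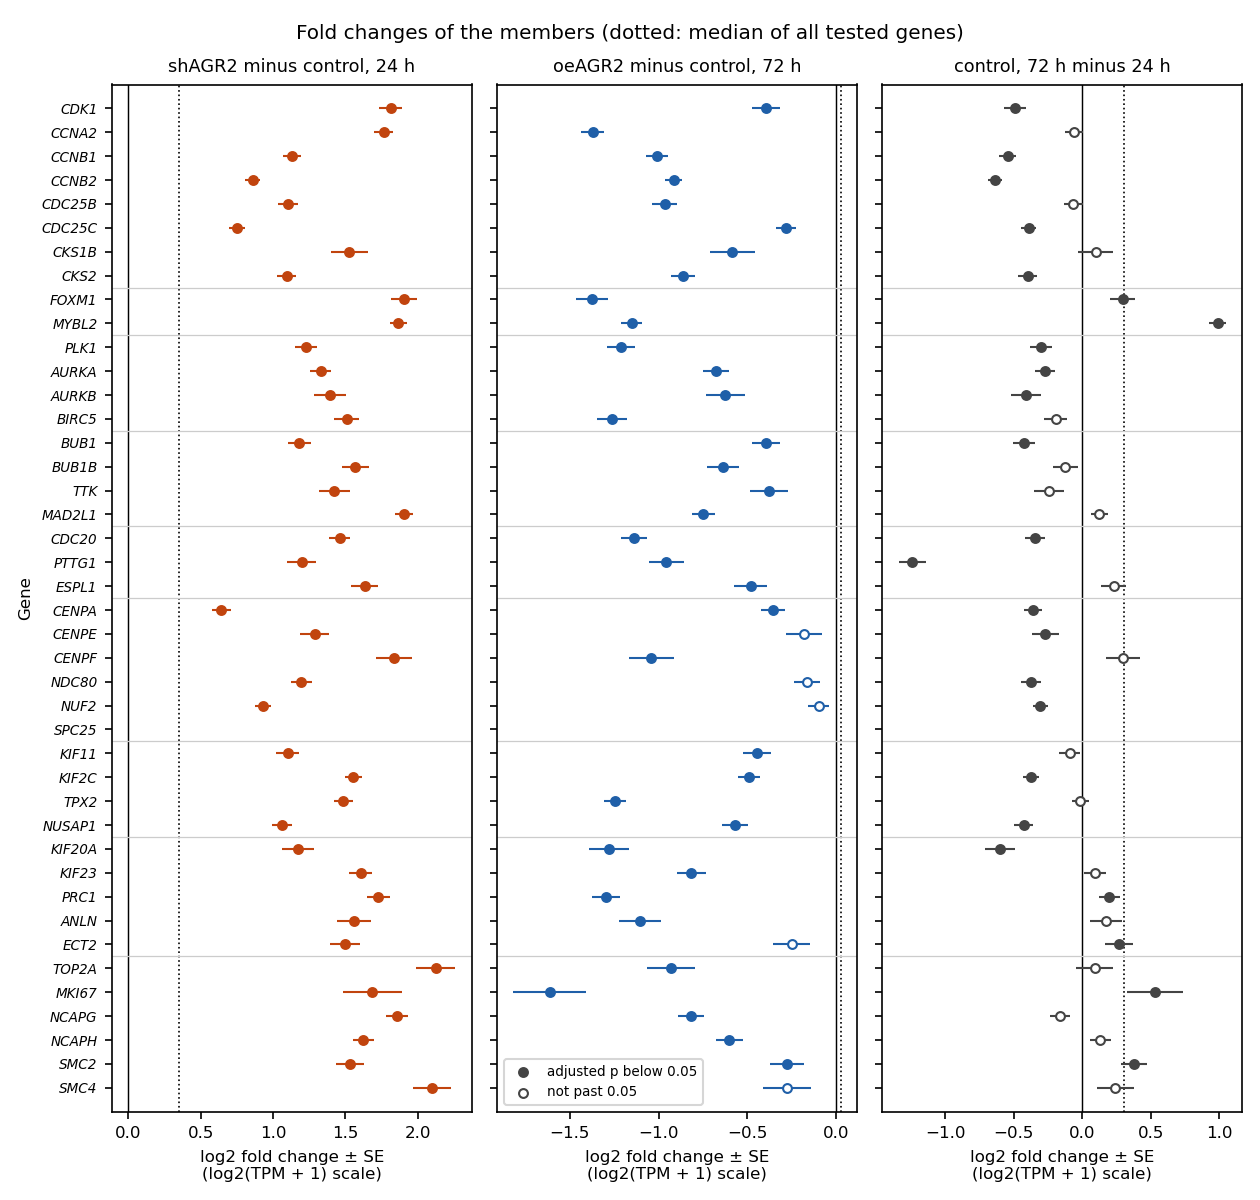
Log2 fold change with its SE from limma for each tested member in 3 comparisons, ordered by function, with filled points past an adjusted p of 0.05 and open points not past it; the dotted line is the median of all 15721 tested genes. All points of the knockdown panel lie right of the dotted line and all points of the overexpression panel left of 0, while the control panel runs from -1.24 for PTTG1 to 0.99 for MYBL2.

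Between the 72 h and the 24 h controls the members divided. The time under drug and the set of controls change together here and cannot be told apart. AGR2 differed as well, at 8.11 ± 0.481 TPM at 72 h and 31.9 ± 0.868 TPM at 24 h, and its part was not tested. The comparison shares the 24 h controls with the knockdown and the 72 h controls with the overexpression, and it carries a shift of the median gene of 0.30. Of 41 tested members 18 were lower at 72 h, where 8.1% of tested genes were, 6 were higher, where 52.9% were, and 17 did not pass. The groups did not overlap for 21 members lower at 72 h (background 10.8%) and for 10 higher (background 58.4%). With rescaled libraries 31 were lower (background 26.3%) and 1 was higher (background 27.9%). PTTG1 had the largest fall: 21.6, 21.3 and 22.2 TPM at 72 h, against 55.9, 52.1 and 50.2 TPM at 24 h, 2.43-fold lower (log2 fold change -1.24, SE 0.0996, adjusted p = 4.32e-06). CCNB1 averaged 30.1 ± 0.585 TPM at 72 h and 44.5 ± 0.954 TPM at 24 h, CCNB2 4.77 ± 0.169 TPM at 72 h and 7.97 ± 0.239 TPM at 24 h and KIF20A 14.2 ± 0.641 TPM at 72 h and 22.2 ± 2.68 TPM at 24 h. CDK1 was lower as well, at 10.8 ± 0.941 TPM at 72 h and 15.7 ± 1.60 TPM at 24 h (adjusted p = 0.000369 by limma). MYBL2 went the other way, with 7.32, 7.32 and 7.24 TPM at 72 h, against 3.17, 2.96 and 3.45 TPM at 24 h, 2.29-fold higher (log2 fold change 0.99, SE 0.0593, adjusted p = 9.24e-07), and it was the member that stayed higher with rescaled libraries, at 0.63. FOXM1 (0.29), MKI67 (0.53), SMC2 (0.38), ECT2 (0.27) and PRC1 (0.20) were higher as deposited on the log2 scale, but with rescaled libraries none of these 5 passed as higher. FOXM1, ECT2 and PRC1 then changed sign, and PRC1 passed as lower at 72 h (-0.19, adjusted p = 0.023 by limma). The median of the longest eighth of transcripts was 1.82-fold higher at 72 h, and that of the shortest eighth 1.09-fold. With length and GC trends removed MKI67 (0.16), FOXM1 (0.18) and PRC1 (0.04) did not pass, while MYBL2 (0.93), SMC2 (0.23) and ECT2 (0.19) did. The count of 6 became 2 without control replicate 1 at 24 h, 3 without control replicate 1 or replicate 2 at 72 h, and 2 without control replicate 3 at 72 h. CCNA2, at 33.8 ± 0.859 TPM at 72 h and 35.4 ± 2.35 TPM at 24 h, CDC25B, at 8.95 ± 0.0855 TPM at 72 h and 9.44 ± 0.605 TPM at 24 h, and TPX2, at 5.59 ± 0.114 TPM at 72 h and 5.68 ± 0.519 TPM at 24 h, did not pass as deposited. With rescaled libraries CCNA2 (-0.50), CDC25B (-0.48) and TPX2 (-0.40) each passed as lower at 72 h. Their adjusted p by limma was then 2.44e-05, 0.000259 and 9.29e-05, in the order named.

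Lists of neighbouring genes, drawn up by function with earlier results of these data known, place the members in their pathway. Largest changes named in these lists are on the log2(TPM + 1) scale, which favours abundant genes over the ratio of means. The list counts stand beside shares over all tested genes of 53.6% higher and 11.9% lower in the knockdown. With overexpression those shares were 29.9% higher and 25.5% lower. Of 53 other mitotic genes known to cycle, 52 were tested, 6 of them (CENPI, CENPK, KIF14, KIF18A, KNL1 and MELK) only because they were high in the knockdown. All 52 rose in the knockdown (median 1.05 relative to all genes), and 47 fell and 0 rose with overexpression (-0.62). SKA3, of the kinetochore SKA complex (13.1 ± 1.56 TPM in the knockdown and 2.11 ± 0.279 TPM in the 24 h controls), and the microtubule protein CKAP2 (45.1 ± 4.98 TPM in the knockdown and 9.72 ± 1.06 TPM in the 24 h controls) had the largest changes in the knockdown on that scale. By ratio of means CDC25A (8.22-fold) and SPC24 (6.34-fold) exceeded SKA3 (6.24-fold). The ubiquitin-conjugating enzyme of the APC/C UBE2S (40.5 ± 6.12 TPM with overexpression and 87.6 ± 1.90 TPM in the 72 h controls) and the chromosomal passenger CDCA8, borealin (2.47 ± 0.174 TPM with overexpression and 6.36 ± 0.313 TPM in the 72 h controls), had the largest log2(TPM + 1) changes with overexpression, while by ratio of means CDC25A fell most (2.93-fold). The APC/C's own subunits, which are present through the cycle, were nearer to the median gene. Of 13 tested, 10 rose, 1 fell (background 11.9%) and 2 did not pass in the knockdown (0.22), and 5 rose, 3 fell and 5 did not pass with overexpression (0.19). CDC27 (9.71 ± 0.680 TPM in the knockdown and 3.88 ± 0.484 TPM in the 24 h controls) and ANAPC7 (10.6 ± 0.505 TPM in the knockdown and 4.37 ± 0.223 TPM in the 24 h controls) rose in the knockdown, and with overexpression ANAPC15 fell (8.46 ± 2.42 TPM with overexpression and 17.4 ± 1.28 TPM in the 72 h controls) while ANAPC2 rose (18.4 ± 0.507 TPM with overexpression and 10.3 ± 0.353 TPM in the 72 h controls).

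Cohesin and its regulators gave 9 rises among 9 tested in the knockdown (0.42) and 3 rises and 2 falls with overexpression (-0.16), with the ring subunits SMC1A (10.0 ± 0.917 TPM in the knockdown and 2.68 ± 0.459 TPM in the 24 h controls) and SMC3 (8.97 ± 0.725 TPM in the knockdown and 2.77 ± 0.642 TPM in the 24 h controls) leading in the knockdown. Constitutive kinetochore and spindle partners gave 13 rises among 13 (0.51), and 3 rises and 8 falls (-0.31). Over all tested genes 53.6% rose in the knockdown, and 29.9% rose and 25.5% fell with overexpression. CKAP5, a microtubule polymerase (10.5 ± 0.832 TPM in the knockdown and 2.66 ± 0.313 TPM in the 24 h controls), and gamma-tubulin TUBG1 (69.5 ± 3.67 TPM in the knockdown and 25.4 ± 1.99 TPM in the 24 h controls) changed most in the knockdown. Further checkpoint and mitotic entry or exit regulators gave 14 rises among 14 (0.50), and 2 rises and 7 falls (-0.21), the GTPase of spindle assembly RAN being among the most changed in both, at 473 ± 17.9 TPM in the knockdown and 198 ± 3.20 TPM in the 24 h controls, and 138 ± 14.8 TPM with overexpression and 218 ± 2.89 TPM in the 72 h controls. The MuvB, DREAM and pocket protein genes, whose products repress or activate the members, gave 9 rises among 9 in the knockdown (0.34) and 4 rises and 1 fall with overexpression (0.17). TFDP1, the E2F partner (13.2 ± 0.940 TPM in the knockdown and 4.39 ± 0.390 TPM in the 24 h controls), and LIN9 of MuvB (1.85 ± 0.152 TPM in the knockdown and 0.396 ± 0.0733 TPM in the 24 h controls) changed most in the knockdown, and LIN37 (9.94 ± 1.35 TPM with overexpression and 6.56 ± 0.245 TPM in the 72 h controls) and TFDP2 (1.61 ± 0.271 TPM with overexpression and 0.815 ± 0.0510 TPM in the 72 h controls) with overexpression. KNTC1 among the regulators and LIN9 were tested only through their knockdown values. With rescaled libraries 29.4% of all tested genes rose in the knockdown. The rises were then 4 of 13 for the APC/C, near that share, 6 of 9 for cohesin and 8 of 13 for constitutive partners. They were 10 of 14 for the regulators, 7 of 9 for MuvB and DREAM and 52 of 52 for the other cycling genes. For KNTC1, LIN9 and 6 of those 52, which entered only through the knockdown, the filter itself favoured a rise.

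Genes that restrain the cycle did not move as one. Among all tested genes 53.6% rose and 11.9% fell in the knockdown. Of 12 CDK inhibitors and other brakes 4 rose and 4 fell in the knockdown (-0.33), where the CDK4/6 inhibitor CDKN2B (25.1 ± 0.352 TPM in the knockdown and 52.2 ± 4.28 TPM in the 24 h controls; log2 fold change -1.03, SE 0.0841, adjusted p = 2.13e-06) and the CDK inhibitor CDKN1C (5.54 ± 0.917 TPM in the knockdown and 11.65 ± 2.42 TPM in the 24 h controls) had the largest changes, both downward. With rescaled libraries 1 rose and 8 fell in the knockdown, where 4620 and 4699 of 15721 tested genes did. With overexpression 3 rose and 7 fell (-0.32), where 29.9% and 25.5% of tested genes did. CDKN1A, the p53-responsive CDK inhibitor p21, had 1.78, 1.52 and 1.63 TPM in the overexpressing libraries, against 8.98, 8.68 and 9.06 TPM in the 72 h controls, lower along with the mitotic genes (log2 fold change -1.91, SE 0.0727, adjusted p = 2.15e-08). BTG2, an antiproliferative gene, was higher, at 27.6 ± 1.94 TPM with overexpression and 8.87 ± 0.499 TPM in the 72 h controls (log2 fold change 1.53, SE 0.0940, adjusted p = 5.07e-07). E2F activators and replication genes are set beside the members because they act just before them in the cycle. Of 29 tested 29 rose in the knockdown (1.56), CDC45, GINS3 and RFC3 entering the test only through it, and 1 rose and 23 fell with overexpression (-0.50), none by 2-fold on the log2(TPM + 1) scale. By the ratio of mean TPM the lowest, RRM2 of ribonucleotide reductase, was 2.42-fold lower. Between the controls 28 of the 29 were higher at 72 h and 0 lower (0.44), where members gave 6 and 18 (-0.46); with rescaled libraries the counts were 24 higher and 1 lower for this list, and 1 and 31 for the members. MCM2 of the replicative helicase averaged 14.3 ± 0.382 TPM at 72 h and 4.56 ± 0.580 TPM at 24 h, and E2F1 11.0 ± 0.468 TPM at 72 h and 3.31 ± 0.221 TPM at 24 h. Between the controls 52.9% of all tested genes were higher and 8.1% lower at 72 h as deposited, and 27.9% and 26.3% with rescaled libraries. The difference between the lists was not tested.

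**Figure D5:**
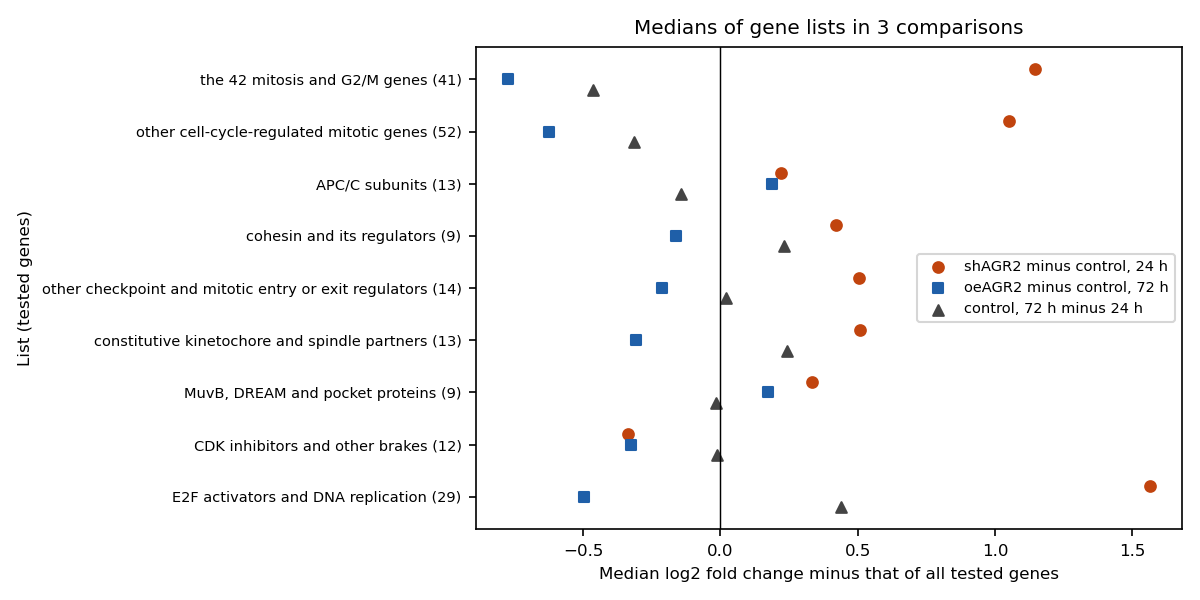
Median log2 fold change of each gene list minus the median of all tested genes, in 3 comparisons, with the number of tested genes in parentheses. The members and the other cycling mitotic genes lie right of 1 in the knockdown and left of -0.5 with overexpression. The E2F activators and replication genes lie farther right in the knockdown, at 1.56, and at -0.50 with overexpression. Between the controls the members lie at -0.46 and the replication genes at 0.44.

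Some values could include reads of other genes. Genes that by name are copies of 7 members are listed in the table with values of their own, and their sequences were not compared. The processed pseudogene CKS1BP3 averaged 174 TPM over the 12 libraries, above CKS1B itself at 55.1 TPM, and it ran alongside it, at 366 TPM in the knockdown against 117 TPM in its controls. MAD2L1P1, at 12.2 TPM, was about as abundant as MAD2L1, at 12.5 TPM. PTTG3P averaged 21.8 TPM beside 51.9 TPM for PTTG1, and CDC20P1 averaged 15.9 TPM beside 86.0 TPM for CDC20. The sources used here do not say how reads matching both were divided, so the levels of CKS1B, MAD2L1, PTTG1 and CDC20 are uncertain. A gene on the other strand overlaps 19 of the 42 members, among them CCNA2, FOXM1, PLK1, BIRC5, CENPF, PRC1 and SMC4. The use of strand in counting is likewise not stated.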

How the data were processed

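RNA from 12 PC9 libraries was sequenced and mapped to hg38 with STAR 2.7.8a, per the submitters' processing notes. Not given in the sources used here were the quantifier, the annotation release and strand handling. A single table of TPM was deposited by the authors, with 30225 genes and every library summing to 1000000, so read depth, and the precision it gives, is unknown. No read counts were used. Gene ends in the table are counted as exclusive and were lowered by 1 base.

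Groups followed the sample titles. TPM were turned into log2(TPM + 1), which understates fold differences of low genes. Tested genes, 15721 in all, reached 1 TPM in at least 3 libraries. A model with a mean for each of the 4 groups was fitted to the 12 libraries with limma 3.58.1 (R 4.3.3; empirical Bayes with a mean trend), and p-values were adjusted by Benjamini-Hochberg over all tested genes at 0.05. A second call also asked for a 2-fold change. Fold values beside TPM are ratios of group means, and ± gives the SD. The script was tested on simulated data.

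Members and gene lists were chosen with earlier results of these data known. Library values are given for the 3 members of highest mean TPM in each functional group. Members with the 3 largest or smallest changes, or with no call, are also named with values. From the other lists the 2 genes of largest change in the knockdown or with overexpression, among those called and not overlapping, were eligible to be named. Replicate numbers did not pair libraries. Alternatives were pseudocounts of 0.1 and 0.5, no filter, a mean of at least 5 TPM, median-ratio and quantile rescaling, the nuclear protein-coding total, removal of length and GC trends (GENCODE 29 lengths, 84.0% of gene identifiers matched), the 6 compared libraries alone, a replicate block, robust fitting and leaving out each library. Promoters came from RefSeq (GRCh38.p14). Tables and figures were made in Python 3.11.15 (numpy 2.4.6; pandas 2.3.3; matplotlib 3.10.9).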

Additional observations from a re-analysis of the deposited data

How the results depend on the processing

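Every tested member kept its call and direction in the knockdown under all alternatives that tested it. The count of 41 rises became 27 with a mean of at least 5 TPM, when 27 members were tested, and the 37 rises of 2-fold became 24 with median-ratio rescaling. The member median in the knockdown, relative to all tested genes, was 1.41 with no filter, 1.04 with median-ratio rescaling, 1.06 with quantile normalisation and 1.02 with length and GC trends removed. With overexpression no member changed direction. The 13 falls of 2-fold became 20 with a pseudocount of 0.1, and the relative median was -0.94 with that pseudocount, -0.97 with a mean of at least 5 TPM and -0.93 on the nuclear protein-coding total. Leaving out a library gave 41 rises in the knockdown each time and 35 to 37 falls with overexpression. SMC2 lost its call in 6 alternatives, while the 5 members without a call gained one in 13 cases together.

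The control comparison depended most on scaling. The 6 members higher at 72 h became 3 with no filter, 3 with a mean of at least 5 TPM, 1 with median-ratio rescaling, 1 on the nuclear protein-coding total, 1 with quantile normalisation, 3 with trends removed, and 2 to 6 on leaving out a library. The 18 lower members became 11 with a mean of at least 5 TPM, when 27 members were tested, and 17 to 20 on leaving out a library. They became 31 with median-ratio rescaling, 30 with quantile normalisation, 26 on the nuclear protein-coding total and 24 with trends removed. The relative median was -0.61 with a pseudocount of 0.1, -0.21 with no filter and -0.59 on the nuclear protein-coding total. FOXM1 reversed to -0.13 with median-ratio rescaling and -0.0636 with quantile normalisation, PRC1 to -0.19, to -0.18 and, on the nuclear protein-coding total, to -0.0401, and ECT2 to -0.0737 and -0.0821. The cause of these changes was not tested.

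The replicate numbers were also tried as a block. Deviations of same-numbered libraries correlated at -0.16, 0.01 and 0.06 in the knockdown comparison, -0.05, -0.03 and 0.04 in the overexpression comparison and 0.02, 0.05 and 0.05 between the controls, so the numbers were not taken as pairing. Between the controls each library correlated best with its own number, a hint from the data only. With the replicate block 41 members rose in the knockdown, 37 fell with overexpression, NDC80 being the addition (adjusted p = 0.0466 by limma), and 4 were higher and 18 lower between the controls. With TPM alone, counting error in members near 1 TPM, such as SPC25, NUF2 and CENPE, cannot be given.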

Other observations

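Between the 72 h and 24 h controls, genes around mitotic entry that are not members also differed in the limma fit; the 4 named here were chosen after their values were seen. WEE1, the kinase that inhibits CDK1, averaged 10.3 ± 0.248 TPM at 72 h and 4.14 ± 0.702 TPM at 24 h (log2 fold change 1.14, SE 0.105, adjusted p = 9.51e-06), and the phosphatase that opposes it early in the cycle, CDC25A, averaged 2.02 ± 0.165 TPM at 72 h and 0.459 ± 0.0524 TPM at 24 h (log2 fold change 1.05). HMMR, a spindle protein, was lower, at 3.03 ± 0.154 TPM at 72 h and 6.41 ± 1.30 TPM at 24 h (log2 fold change -0.86). CDKN1A was higher, at 8.91 ± 0.204 TPM at 72 h and 3.397 ± 0.435 TPM at 24 h (log2 fold change 1.18), and with overexpression it was lower than in the same 72 h controls. With rescaled libraries the log2 changes were 0.77 for WEE1, 0.87 for CDC25A, -1.24 for HMMR and 0.81 for CDKN1A.

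How far a member rose in the knockdown said little about how far it fell with overexpression. Across the 42 genes the log2 ratios of mean TPM in the 2 comparisons, which share no library, had a Pearson correlation of 0.073 and a Spearman correlation of 0.070, given as a description because genes are not independent replicates and share libraries and pathway. SMC4, at 4.78-fold higher in the knockdown, was 1.24-fold lower with overexpression, whereas KIF20A, at 2.30-fold higher, was 2.67-fold lower.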
